A study of Mus musculus with 10 samples.

Results

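The Dlk1-Dio3 cluster is an imprinted region of mouse chromosome 12. Its protein-coding genes Dlk1, Rtl1 and Dio3 are expressed from the paternal chromosome, while the non-coding transcripts Meg3, Rian and Mirg and a long series of miRNAs are expressed from the maternal one. The miRNAs are cut from these maternal transcripts, and the region is best known for its activity in the embryo, the placenta and the brain. The members described here were chosen by miRNA number, 48 numbers in all and every arm or copy on the array, which gave 102 of the 1892 miRNAs measured.

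RNA from 10 male mouse samples was hybridized to one-colour miRNA microarrays with 2 spots per miRNA, 5 samples titled T-C cell and 5 titled Control cell. The labels give the source of the T-C cell samples as Col-/- and that of the others as Control Col, describe both as sle liver, and name a liver cell culture protocol. The treatment text states 0.5 mg TN-CF for 24 hours on 100000 T-C cells per dish and a control, and the series' design text writes TB-CF. The comparison asks how treated T-C cells differ from control cells, and treatment and source cannot be told apart. The labels leave T-C, TN-CF, Col and sle unexplained. Separate cultures or animals are named nowhere, so each p-value here measures the spread among these 10 samples only, and that spread may be technical.

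The sequences below are those the results turn on: both arms of miR-341, whose 5p arm was the brightest member, miR-654-3p, the member that passed the test, its other arm, and the 3p arms of the hairpins around it from miR-667 to miR-300. Each is written 5′ to 3′ as the array gives it, and capitals mark the seed (bases 2 to 8), the stretch that pairs with target mRNAs.
miR-341-5p: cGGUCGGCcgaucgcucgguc
miR-341-3p: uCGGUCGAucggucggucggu
miR-654-3p: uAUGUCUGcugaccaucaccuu
miR-654-5p: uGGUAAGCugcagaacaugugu
miR-667-3p: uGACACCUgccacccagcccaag
miR-376c-3p: aACAUAGAggaaauuucacgu
miR-376b-3p: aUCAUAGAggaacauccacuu
miR-376a-3p: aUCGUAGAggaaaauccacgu
miR-300-3p: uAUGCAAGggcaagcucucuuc
Of the 102 members, 98 were in the RefSeq miRNA table for GRCm38.p6, 96 of them with the array's sequence (both arms of miR-337 differed at their ends). On chromosome 12 lay 97 members, in a stretch of 180 kb, and miR-496b lay elsewhere, at chr19:16314894-16314915 in an intron of Gnaq on the opposite strand. miR-299b, read from the minus strand opposite miR-299a, was the only hairpin on that strand among the matched members on chromosome 12. The members held 93 different seeds, and 9 seeds were held by 2 members each. Among the tested members, miR-379-5p shared its seed with miR-1193-5p, miR-411-3p with miR-379-3p, and miR-758-5p with miR-1197-5p. No other miRNA on the array had the seed of miR-654-3p.

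Most of the cluster was close to background on these arrays. A miRNA counted as detected where its mean of 2 spots exceeded the mean of the array's 16 blank spots plus 3 SD, and was tested where it was detected on at least 5 of 10 arrays. By this rule 27 members were detected on no array, 41 on 1 array, 16 on 2 to 4 arrays and 18 on 5 or more, 3 of them (miR-341-5p, miR-485-3p and miR-127-3p) on all 10. Thus 17.6% of the members were tested, against 25.2% of all miRNAs on the array. Each of the 41 members detected once was detected on Control cell replicate 5, the array with the lowest limit (64.0). That array showed 75 members above its limit, where the other Control cell arrays showed 7, 14, 18 and 23. The T-C cell arrays showed 24, 9, 4, 18 and 28 members from replicate 1 to replicate 5, with the fewest on T-C cell replicate 3, whose limit of 474 was the highest. The same arrays were the extremes for all miRNAs, with 1314 detected on Control cell replicate 5 and 189 on T-C cell replicate 3. Between them the count did not follow the limit array by array: T-C cell replicate 5, with a limit of 201, showed 28 members, and T-C cell replicate 2, with a limit of 176, showed 9. At the edge of the rule, miR-382-5p, miR-411-3p and miR-665-5p were detected on 5 arrays and tested, while miR-154-5p, miR-337-3p, miR-341-3p, miR-433-3p and miR-668-3p were detected on 4 and were not. A miRNA below the limit was not detectable on that array, which does not show that it was absent from the RNA.

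**Figure D1:**
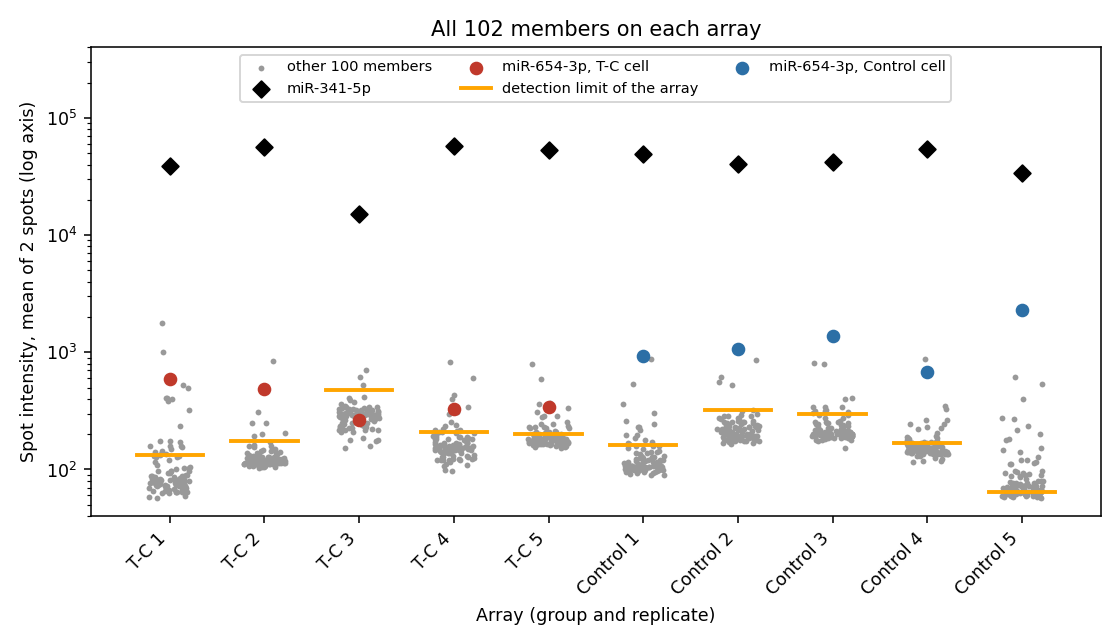
Intensity of all 102 members on each array (mean of 2 spots, log axis), with miR-341-5p as black diamonds, miR-654-3p as coloured circles, the other 100 members as grey points and each array's detection limit as an orange bar. miR-341-5p stands between 15153 and 57476, far above the rest, and miR-654-3p is higher on the 5 Control cell arrays (680 to 2302) than on the 5 T-C cell arrays (263 to 596).

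The labelled tissue was checked against its miRNAs. miR-122-5p, by far the most abundant miRNA in hepatocytes, exceeded the limit on 1 of 10 arrays (intensities 57.8 to 193), while miR-192-5p and miR-194-5p, of liver and gut, were detected on all 10. Also on the hepatocyte list, miR-148a-3p (985 to 3474), miR-22-3p (2317 to 4860) and miR-101a-3p (423 to 1323) were detected on all 10. So were miR-145a-5p (15029 to 27162), of smooth muscle, and miR-200b-3p (5794 to 12729), of epithelium. Of 5 tested neuronal miRNAs, 5 did not pass. The neuronal miR-124-3p was detected on 1 array, miR-9-5p on 5, miR-137-3p on 7 and miR-128-3p on 10. In bulk RNA, a change in the share of a cell type and a change within cells cannot be told apart. Of 7 marker lists, the haematopoietic one alone held a member that passed (miR-150-5p, higher in T-C cell samples by 0.86, SE 0.23, limma adjusted p = 0.0433), and its part in the results below was not tested. It was 1 of 3 tested on that list, where 7.77% of all tested miRNAs passed (6.3% lower and 1.47% higher in T-C cell samples). The others, miR-223-3p and miR-451a, differed by 0.29 and 0.30 and did not pass (limma adjusted p = 0.599 and 0.678).

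miR-341 is a rodent miRNA whose hairpin lies in an intron of the non-coding gene Rian. Its 5p arm (chr12:109611521-109611541, plus strand) was the brightest of all 1892 miRNAs on 7 arrays, the second brightest on T-C cell replicate 1 and Control cell replicate 5, and the fourth on T-C cell replicate 3. Intensities were 38813, 55994, 15153, 57476 and 53260 on T-C cell replicates 1 to 5. On Control cell replicates 1 to 5 they were 49486, 40817, 42239, 54722 and 33729. The groups overlapped, and T-C cell replicate 3 was the lowest array, with both of its spots low (16227 and 14080). Mean intensities were 44140 ± 17820 (T-C cell) and 44200 ± 8118 (Control cell), with SD over 5 arrays each and an exact two-sided permutation p = 1.

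On the normalized scale, log2(intensity + 50) after cyclic loess between arrays, miR-341-5p averaged 15.24 ± 0.86 over the T-C cell arrays and 15.29 ± 0.35 over the Control cell arrays (SD, n = 5 each). The difference was −0.04 (95% interval −0.82 to 0.74, limma adjusted p = 0.968). This interval leaves room for a shift of over 0.7 in either direction. Its sign turned when any of 3 arrays was left out: T-C cell replicate 3 gave 0.34 (limma adjusted p = 0.483), and the second and the fourth Control cell arrays gave 0.014 and 0.024.

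The 3p arm of the same hairpin (chr12:109611556-109611576, plus strand) was near background, at 171, 120, 346, 207 and 208 on the T-C cell arrays and 126.5, 322.6, 228, 169 and 88.6 on the Control cell arrays, with T-C cell replicate 3 and Control cell replicate 2 the highest of overlapping groups. It passed the detection limit on 4 arrays and was not tested with the others. Its normalized level averaged 7.93 ± 0.14 over the T-C cell arrays and 7.94 ± 0.23 over the Control cell arrays (SD, n = 5 each, exact two-sided permutation p = 0.984). With the 3p arm this close to background, no ratio between the arms is given.

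The brightness of miR-341-5p was not shared by the cluster. The next brightest member was 14.7 to 70.2 times dimmer, depending on the array: miR-485-3p on 5 arrays, miR-654-3p on 4, all of them Control cell arrays, and miR-381-5p on T-C cell replicate 3. miR-341-5p made up 34.3% of the summed intensity of all members on T-C cell replicate 3 and 62.6% to 79.9% on the other arrays. Blank spots were not subtracted from these sums, and most members were close to background, so the share also depends on each array's background. The share was lowest on the arrays with the highest blank means. These were T-C cell replicate 3 (blank mean 223) and Control cell replicates 2 (227, share 62.6%) and 3 (208, share 63.0%). Its sequence has 76.2% G and C, against a median of 47.8% over the members and 52.2% over all miRNAs on the array. Among the 43 miRNAs on the array with at least that share of G and C, the median level was 7.83 and the median rank 623, against 7.66 and 946.5 over all miRNAs, and 19 of the 43 were tested. The part of base composition in its brightness was not tested. No other miRNA on the array shared a run of 10 or more bases with miR-341-5p. RNA other than the array's miRNAs was not compared, and whether the probe also reads such RNA was not tested.

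miR-654-3p was the member that fell, 1 of 18 tested, where 7.77% of all tested miRNAs passed. It lies in the miR-379 to miR-410 part of the cluster, between annotated genes (chr12:109723270-109723291, plus strand). Its intensities were 596, 488, 263, 328 and 342 on T-C cell replicates 1 to 5, and 934, 1058, 1376, 680 and 2302 on Control cell replicates 1 to 5. Every T-C cell array lay below every Control cell array, and Control cell replicate 5 was the highest. The T-C cell mean was 404 ± 135.5 and the Control cell mean 1270 ± 629 (SD, n = 5 each). An exact permutation test over the arrays, two-sided, gave p = 0.00794, its lowest possible value for groups of 5. Groups of this size that do not overlap always give this value. It is not adjusted for the choice of miR-654-3p as the member that passed, and adds no separate support.

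Normalized, miR-654-3p averaged 8.72 ± 0.40 over the T-C cell arrays and 10.31 ± 0.66 over the Control cell arrays (SD, n = 5 each). It fell by 1.59 on the log2 scale (SE 0.31, 95% interval −2.26 to −0.91, limma adjusted p = 0.0351), or 3.00-fold (1.88 to 4.80). It was detected on all 5 Control cell arrays and on 4 of 5 T-C cell arrays, the exception being T-C cell replicate 3. With 50 added to each intensity the change of a miRNA near background is understated, and with blank spots subtracted the log2 difference was −2.89 (limma adjusted p = 0.0698). The call ended when the fourth T-C cell array or Control cell replicate 1, 2 or 3 was left out (limma adjusted p = 0.0883, 0.0596, 0.0844 and 0.0560), with differences from −1.65 to −1.46. Without the arrays with the highest and the lowest detection limit, T-C cell replicate 3 and Control cell replicate 5, the difference was −1.30 (limma adjusted p = 0.101). The call also ended with median centring (limma adjusted p = 0.0969) and with every miRNA on the array tested (0.189).

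In the main fit the neighbours of miR-654-3p did not show a difference of that size. The hairpin of miR-654 starts 500 bases after that of miR-376c and 240 bases before that of miR-376b. miR-376b-3p had normalized levels of 7.73, 7.94, 7.81, 8.08 and 8.20 on T-C cell replicates 1 to 5 and 8.42, 8.12, 8.71, 7.92 and 8.81 on Control cell replicates 1 to 5. The T-C cell arrays lay mostly lower, but the groups overlapped, and the difference of −0.45 (SE 0.17, limma adjusted p = 0.158) did not pass. Without Control cell replicate 4 it was −0.56 and passed (limma adjusted p = 0.0416). Over the other processing settings with all arrays it ran from −1.61 to −0.27 without passing. The lower end was close to the −1.59 of miR-654-3p in the main fit. The difference of miR-654-3p ran from −2.89 to −1.27 over such settings. miR-667-3p, whose hairpin starts 3212 bases before that of miR-654, stood at 8.27, 8.32, 8.64, 8.03 and 8.18 on the T-C cell arrays and at 8.97, 9.26, 8.44, 8.40 and 8.44 on the Control cell arrays. Only Control cell replicates 1 and 2 lay above all T-C cell arrays, and the difference was −0.41 (SE 0.19, limma adjusted p = 0.291). Over the processing settings this difference ran from −0.88 to −0.25 without passing.

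The other arm, miR-654-5p, was detected on no array (60.1 to 289) and differed by 0.02. miR-376c-3p and miR-376a-3p were each detected on 1 array and differed by −0.10 and −0.08. miR-300-3p, also detected on 1 array, differed by −0.16, with an unadjusted p = 0.0443 from limma when every miRNA on the array was tested. The sequences of miR-376b-3p and miR-376c-3p have 10 consecutive bases in common, and whether each probe also reads the other was not tested.

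**Figure D2:**
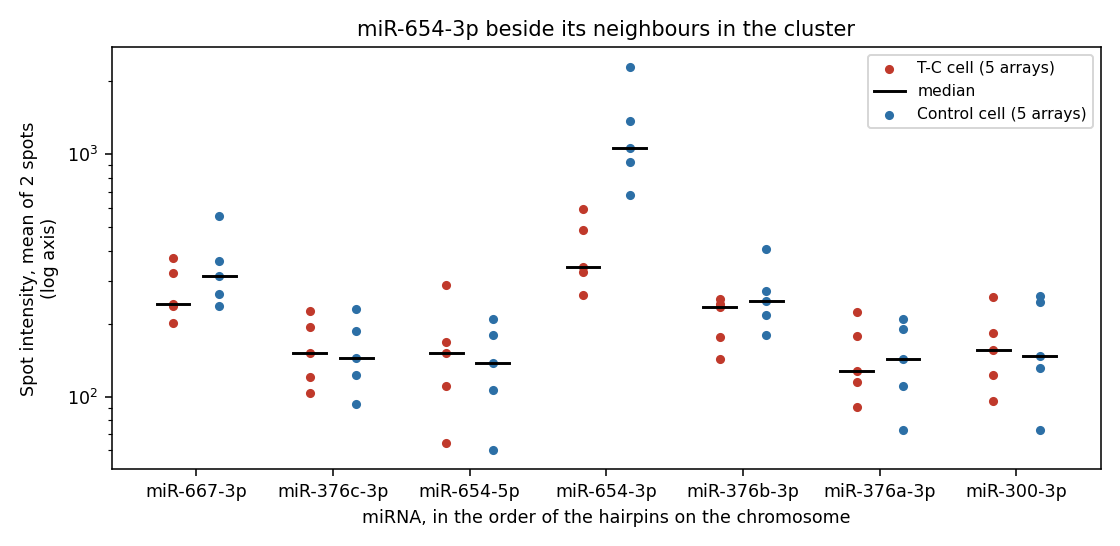
Intensity (mean of 2 spots, log axis) of both arms of miR-654 and the 3p arms of the hairpins around it from miR-667 to miR-300, in the order of their hairpins, with 1 point per array and a bar at each group's median. The groups are apart for miR-654-3p and overlap for the other 6.

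Set against all miRNAs, the count in the cluster was close to the background. Of the 18 tested members, 0 rose, 1 fell and 17 did not pass, or 5.56% that passed, where 7.77% of all 476 tested miRNAs passed (6.3% lower and 1.47% higher in T-C cell samples). At an unadjusted p of 0.05, 2 members passed (11.1%), against 18.3% of all tested miRNAs. The groups did not overlap for 1 member (5.56%), against 3.78% of all tested miRNAs (1.89% lower in T-C cell samples). The median difference of the tested members was −0.09, against 0.02 over all tested miRNAs, and 12 of 18 were negative (66.7%, against 47.1%). With every miRNA on the array tested, 0 of 102 members passed in limma, and 1 of 1892 miRNAs did (0.0529%). In that fit 5 of 102 members had an unadjusted p under 0.05, a share below that of all miRNAs (126 of 1892, or 6.66%). These 5 members were miR-654-3p, miR-376b-3p, miR-667-3p, miR-300-3p and miR-431-5p.

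**Figure D3:**
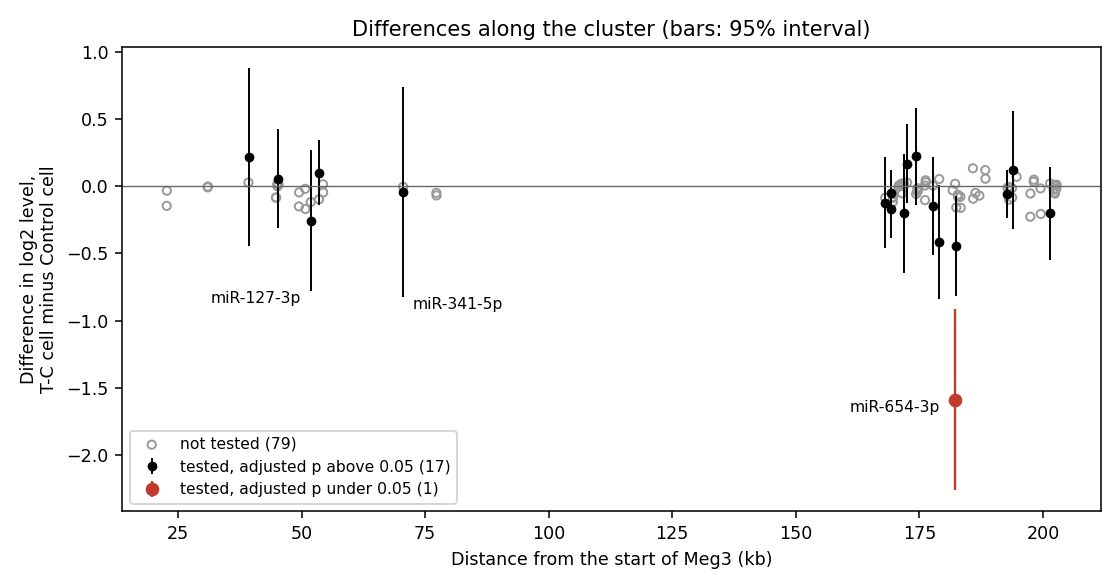
Difference in normalized log2 level (T-C cell minus Control cell) of the 97 members on chromosome 12 against distance from the start of Meg3 in kb, with 95% intervals for tested members. miR-654-3p at −1.59 (red) is apart from the 17 other tested members (black, −0.45 to 0.22), and the 79 members that were not tested (open circles) lie close to 0.

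On the Meg3 and Rtl1 side of the cluster, 4 of 22 members were tested and 0 passed in limma, and 0 had an unadjusted p under 0.05. Several miRNAs of this side are antisense to Rtl1, a retrotransposon-derived gene needed in the placenta, and direct the cutting of its mRNA. miR-127-3p (chr12:109592888-109592909, plus strand, opposite an exon of Rtl1) had intensities of 521, 250, 529, 601 and 587 on the T-C cell arrays and 538, 526, 816, 351 and 533 on the Control cell arrays. The groups overlapped widely, and the lowest array of each, T-C cell replicate 2 and Control cell replicate 4, stood well below the others on raw intensity. The difference in normalized level was −0.26 (SE 0.24, limma adjusted p = 0.678). miR-434-3p, also antisense to Rtl1, differed by 0.10 (SE 0.11), and miR-665-5p by 0.06 (SE 0.17).

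miR-493-3p, between Meg3 and Rtl1, was set apart by 1 array. Its intensity was 1009 on T-C cell replicate 1 and 191 to 307 on the other T-C cell arrays, against 172 to 275 on the Control cell arrays. Its difference was 0.22 (SE 0.30, limma adjusted p = 0.782), and −0.15 without that array (limma adjusted p = 0.546).

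In the miR-379 to miR-410 group, a long run of hairpins linked to neuronal development and, in the newborn liver, to energy metabolism, 13 of 75 members were tested, not counting miR-496b on chromosome 19, which was not tested. Of these 0 rose, 1 fell (miR-654-3p) and 12 did not pass, 10 of 13 differences were negative and the median was −0.15. miR-485-3p, in an exon of Mirg and the brightest member after miR-341-5p by mean level, had intensities of 1770, 844, 614, 819 and 789 on the T-C cell arrays. On the Control cell arrays it had 871, 862.6, 791, 882 and 615. The groups overlapped, with T-C cell replicate 1 highest, and the normalized difference was 0.12 (SE 0.20, limma adjusted p = 0.819). On Control cell replicate 5 its spots differed by 1.80 in log2, the widest spot gap of any tested member, where the median gap was 0.13.

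miR-379-5p, the first hairpin of the group, differed by −0.12 (SE 0.16), and both arms of miR-411, the one hairpin with a tested pair of arms, lay close to background. miR-411-5p had intensities of 141, 141, 284, 203 and 212 on the T-C cell arrays and 165, 230, 317, 172 and 112 on the Control cell arrays, and miR-411-3p ranged from 128 to 309. The groups overlapped for both arms, with differences of −0.17 (SE 0.10) and −0.05 (SE 0.08).

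miR-494-3p and miR-329-3p had the highest positive differences in this group. miR-494-3p had normalized levels of 8.83, 8.13, 8.49, 8.77 and 8.68 on the T-C cell arrays and 8.50, 8.46, 8.55, 8.30 and 7.98 on the Control cell arrays, highest on T-C cell replicate 1. Its groups overlapped, with a difference of 0.22 (SE 0.17). miR-329-3p stood at 407, 310.1, 342, 306 and 308 on the T-C cell arrays and at 184, 288, 304, 242 and 269 on the Control cell arrays. On raw intensity every T-C cell array of miR-329-3p lay above every Control cell array, but after normalization the groups overlapped, with a difference of 0.17 (SE 0.14).

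miR-758-5p had intensities of 407, 247, 393, 400 and 367 on the T-C cell arrays and 302, 618, 290, 330 and 402 on the Control cell arrays. Control cell replicate 2 was the highest array, the groups overlapped and the difference was −0.20 (SE 0.20). miR-541-5p, in an intron of Mirg, stood at 145, 137, 292, 255 and 284 on the T-C cell arrays and at 198, 239, 339, 168 and 182 on the Control cell arrays. These groups overlapped too, with a difference of −0.20 (SE 0.16). miR-495-3p differed by −0.15 (SE 0.17) and miR-382-5p by −0.06 (SE 0.08). Over these 9 members of the group the limma adjusted p ran from 0.462 to 0.807. miR-758-5p shares a run of 13 bases with miR-134-5p, a miRNA of dendritic spines that was detected on 2 arrays, and miR-495-3p a run of 12 with miR-543-3p, and cross-hybridization within these pairs was not tested.

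**Figure D4:**
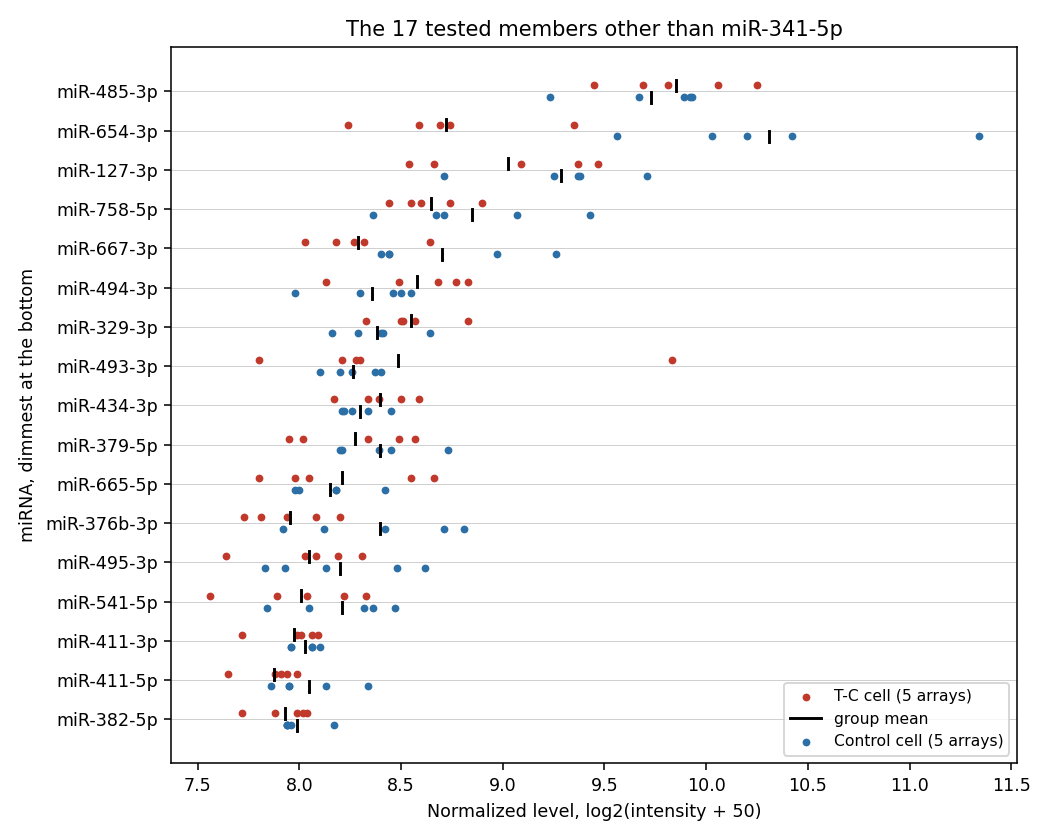
Normalized level, log2(intensity + 50), of the 17 tested members other than miR-341-5p, with 1 point per array (5 T-C cell in red, 5 Control cell in blue) and a bar at each group's mean. The groups are separate for miR-654-3p (8.72 against 10.31) and overlap for the other 16.

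Of the 18 tested members, T-C cell replicate 1 was the highest array for 5 (miR-434-3p, miR-485-3p, miR-493-3p, miR-494-3p and miR-665-5p) and the lowest for 7 (miR-376b-3p, miR-379-5p, miR-382-5p, both arms of miR-411, miR-495-3p and miR-541-5p). Control cell replicate 3 was the highest for 5. The 84 members that were not tested had differences from −0.23 to 0.13 with a median of −0.02, at mean levels between 7.38 and 7.96.

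Of the 50 hairpins with both arms on the array, 17 had a tested arm. The 3p arm was the brighter one in 11 of these and the 5p arm in 6, and both arms were tested in 1. Among tested members, 1 of 11 on the 3p arm fell and 0 of 7 on the 5p arm passed in limma, where 0 of the 7 had an unadjusted p under 0.05. The difference between the arms was not tested.

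The letters ACC, read 5′ to 3′ in the mature strand alone, were noticed in earlier results of these data among miRNAs that fell. They occur in 33 of 102 members (32.4%) and in 388 of 1892 miRNAs on the array (20.5%). In miR-654-3p they first appear at base 12. The 8 tested members with ACC had a median difference of −0.11, and 1 of them fell. The 10 without ACC had a median of −0.09, and none passed in limma, with 1 at an unadjusted p under 0.05 (miR-376b-3p). Over all tested miRNAs, 28 of 124 with ACC fell and 2 rose (median −0.13), while 2 of 352 without it fell and 5 rose (median 0.05). Since ACC was picked from miRNAs that fell in these same data, these counts are a description and lend no support to a link. The other 7 tested members with ACC, miR-329-3p, both arms of miR-411, miR-434-3p, miR-494-3p, miR-667-3p and miR-758-5p, had differences from −0.41 to 0.22.

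Of 14 further miRNAs in or beside the region that the numbers did not name, 3 were tested and 0 passed in limma, with 1 at an unadjusted p under 0.05. That was miR-1188-3p, from a hairpin 322 bases after that of miR-341, and it was chosen after its values were seen. Its sequence, with the seed in capitals, also holds ACC.
miR-1188-3p: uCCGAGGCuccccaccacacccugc
Its intensities were 111, 156, 320, 167 and 194 on the T-C cell arrays and 503, 844, 313, 256 and 156 on the Control cell arrays. It was above the detection limit on 5 arrays, all of them Control cell arrays. It thus entered the test only through the group where it was high, which limits what its values can show. The Control cell arrays were spread widely and the groups overlapped, and the difference was −0.99 (SE 0.32, limma adjusted p = 0.0932). miR-3072-5p differed by −0.10 (SE 0.21) and miR-3070b-3p by 0.28 (SE 0.24). Of 10 miRNAs from other imprinted loci (Mest, Gnas, Igf2 and H19), 1 was tested, miR-483-5p from an intron of Igf2, with normalized levels of 9.90 ± 0.30 (T-C cell) and 9.76 ± 0.50 (Control cell). The SD is over 5 arrays each, and limma gave an adjusted p = 0.838.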

How the data were processed

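Per the labels, 1 µg of total RNA was tailed with poly(A), ligated to a tag and stained with Cy3 by a service provider. The authors deposited 1 file per array with the median spot intensity, a linear brightness with no scaling between arrays seen in the values. The files also hold empty brightness columns, which were not used. Which scanner and miRBase release were used is not stated. All Control cell arrays carry header numbers from 1342 to 1353 and no T-C cell array does. Since nothing says what these numbers mean, no batch was drawn from them.

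Each spot was taken as log2(intensity + 50) and averaged with its duplicate. Cyclic loess over all 1892 miRNAs (limma 3.58.1, R 4.3.3) then brought the arrays to a common scale. miRNAs detected on at least 5 of 10 arrays (blank mean plus 3 SD) were tested with limma (eBayes with a trend, two-sided, Benjamini-Hochberg over 476 miRNAs, threshold 0.05). Single values were compared by exact permutation. The members, lists and rule for named miRNAs were chosen with earlier results of these data known: miR-341, the members that passed, the 8 smallest p-values, the 8 brightest and members sharing a seed with one that passed. The design named miR-341-3p as the bright arm. It is the 5p arm, so both are given, and the 3p arm was compared by permutation because it was not tested. miR-1188-3p was chosen after its values were seen. Positions are from RefSeq (GRCm38.p6) and gene annotation from GENCODE on GRCm38. On simulated arrays of the T-C cell against Control cell comparison over 476 miRNAs, limma called 92% of miRNAs lowered 2-fold, 76.8% of those raised 2-fold and 4.57% of unchanged ones. The simulations held 250 miRNAs at each of the log2 changes −2, −1, 1 and 2, and 1380 unchanged. This changed share is far above the 7.77% that passed in the data, and Benjamini-Hochberg calls more readily where more miRNAs change. Noise was drawn independently for each miRNA, and the detection filter was not simulated. The rates may thus be too high for these data. The number of arrays limits the precision.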

Additional observations from a re-analysis of the deposited data

Results flagged for a closer look

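Among 40 groups of 5 values checked, 4 had a value far from the other 4, and chance gives about 1 in 20. miR-493-3p stood at 9.83 on T-C cell replicate 1, against 7.80 to 8.30 on the other T-C cell arrays. miR-411-3p stood at 7.72 on the same array, against 7.99 to 8.09. miR-382-5p stood at 8.17 on Control cell replicate 3, against 7.94 to 7.96. Control cell replicate 5 had 75 members above its detection limit, against 7 to 23 on the other Control cell arrays, and its limit of 64.0 was the lowest.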

How the results depend on the processing

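Of 437 recomputed differences of the 18 tested members, 408 kept their direction and side of the threshold, 10 lost the call, 1 gained it and 18 changed sign. The number of miRNAs that passed, 37 with all arrays, was 14 with median centring, 3 with blanks subtracted, 1 with no filter, 2 among the brighter 946 miRNAs by mean, 22 with a replicate block and 1 without T-C cell 1 and 3 or, likewise chosen after seeing the data, without T-C cell 3 and Control cell 5. It was 1 to 44 when single arrays were left out. The number of members that passed, 1 with all arrays, was 0 with median centring, with blanks subtracted, with no filter, among the brighter miRNAs by mean and in both fits without 2 arrays, and 0 to 2 without single arrays. miR-654-3p stayed lower in each of these fits (−2.89 to −1.27), with limma adjusted p from 0.00587 to 0.189. The members' median of −0.09 was 0.036 without normalization, where that of all tested miRNAs was 0.14, and −0.21 to −0.044 without single arrays. Without normalization miR-379-5p, miR-382-5p, miR-411-3p, miR-411-5p and miR-495-3p were at 0.047, 0.11, 0.12, 0.0016 and 0.024. With median centring miR-382-5p and miR-411-3p were at 0.0056 and 0.012, with blanks subtracted miR-411-3p was at 0.21, and with array weights miR-341-5p was at 0.037 and miR-665-5p at −0.058. miR-341-3p was at 0.021 with quantile normalization, 0.058 with median centring, 0.17 without normalization and 0.0066 with 10 added, and at −0.064 to 0.10 without single arrays. Without single arrays miR-341-5p ranged from −0.22 to 0.34, miR-493-3p from −0.15 to 0.39 and miR-665-5p from −0.015 to 0.16. Without T-C cell 1 and 3, miR-341-5p was at 0.40 and miR-493-3p at −0.17, and without T-C cell 3 and Control cell 5 miR-341-5p was at 0.14. The cause of these changes was not tested. Same-numbered samples did not deviate together (correlations −0.20 to 0.26), and none were each other's best match. The main fit did not pair them, but correlations this weak cannot exclude a pairing. Dim members lie near the blanks, which limits what their differences can show.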
